A study of Mus musculus with 4 samples.

Results

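The genes described here are 7 genes of blood vessel endothelium (Cldn5, Pecam1, Tek, Flt1, Kdr, Cdh5 and Slc2a1) and 2 genes of adult haemoglobin (Hba-a1 and Hbb-bs), 9 genes in all. They were matched to the array by the gene symbol of each probe set. A probe set that carries a single symbol was found for 8251 genes of the array, 8 of them members, with 9 member probe sets. Another 3 probe sets carry the symbol of a member together with others and are reported as shared. These are 2 for beta-globin, which list Hbb-bt, Hbb-bs, Hbb-b2 and Hbb-b1, and 1 for alpha-globin, which lists Hba-a2 and Hba-a1. Hbb-bs was measured on shared probe sets only. The question was whether the vessel content of the dissected tissue and the blood left in it vary together or apart over 4 control samples.

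Hippocampal area CA1 was dissected for 4 samples, and the total RNA of each was measured on 1 Affymetrix mouse array. All came from young males of the inbred strain C57BL/6J that an experimenter had handled and that received no further treatment. They differ by the hour of extraction, 1, 2, 4 or 6 h after the last shock given to other mice, which are not analysed here. Each hour had 1 array, so a difference between 2 hours has no replicate check, and the mean ± SD below runs over all 4 control arrays. The labels do not say whether the mice were perfused or how many were used per sample.

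Endothelial cells line every brain capillary and form the blood-brain barrier. Claudin 5 (Cldn5) seals the tight junctions between them, VE-cadherin (Cdh5) and Pecam1 hold neighbouring cells together, and Flt1 and Kdr are the receptors of vascular endothelial growth factor. Tek, also called Tie2, is the receptor of the angiopoietins, and Slc2a1 is the glucose transporter GLUT1, which barrier endothelium carries in quantity and astrocytes also use. Haemoglobin mRNA is made in red cell precursors and persists in young red cells in the blood, so in a brain sample it is commonly read as blood left in the vessels. Low haemoglobin expression in neurons and glia of the mouse brain has also been described.

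The promoters are shown because the haemoglobin genes come in near-identical copies, with that of Cldn5, the brightest vessel gene, beside them. Any part of these sequences in the differences between arrays was not tested. The windows are the 120 bases before the start site, from RefSeq (GRCm38.p6), read 5′ to 3′. Capitals mark matches, on either strand, to TATAA (the core of a TATA box), to CCAAT (the CCAAT box) or to CACCC (the CACCC box), elements known from globin genes. Adjacent or overlapping matches run together.
Hba-a1, chr11:32283552-32283671, plus strand: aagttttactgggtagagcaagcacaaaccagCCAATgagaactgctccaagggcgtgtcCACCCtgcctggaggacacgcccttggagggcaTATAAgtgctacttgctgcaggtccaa
Hbb-bs, chr7:103827929-103828048, minus strand: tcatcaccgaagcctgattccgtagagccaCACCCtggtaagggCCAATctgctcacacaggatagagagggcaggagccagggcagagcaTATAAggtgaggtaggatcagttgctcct
Hbb-bt, chr7:103813924-103814043, minus strand: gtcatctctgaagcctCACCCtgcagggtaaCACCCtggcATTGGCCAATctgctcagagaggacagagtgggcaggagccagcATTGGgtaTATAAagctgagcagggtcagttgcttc
Cldn5, chr16:18776727-18776846, plus strand: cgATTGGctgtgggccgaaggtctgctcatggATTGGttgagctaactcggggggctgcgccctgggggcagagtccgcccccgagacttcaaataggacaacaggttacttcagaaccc

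The alpha-globin gene Hba-a2 had a window identical to that of Hba-a1 in 117 of 120 bases, and the 300-base windows of the promoter table shared an unbroken run of 297 bases. The beta-globin windows of Hbb-bs and Hbb-bt matched in 93 of 120 aligned bases. All of these globin windows held each of the 3 motifs. The motifs were picked as elements known from globin genes, so these matches are not a finding of these data. TATAA was found in 11.8% of 32851 windows of that length, CCAAT in 21.3%, CACCC in 31.7%, and all 3 in 0.688%. The Cldn5 window held CCAAT letters at 2 places and neither of the others. Among the windows of Slc2a1, Tek, Kdr and Flt1, none held CCAAT, Flt1 held TATAA at 2 places and CACCC at 1, and Kdr held CACCC at 1. A match is only a run of letters, and the promoters of Pecam1 and Cdh5 were not used here.

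Haemoglobin was highest in the 1 h sample on each of the 4 adult haemoglobin probe sets with signals above the floor (4 of 4, against 23.1% of all tested probe sets with their highest signal at 1 h). The floor is a signal of 36.8, the 20th percentile of all values, and signals under it were set to it before log2 was taken. Alpha-globin Hba-a1 had signals of 3105, 2452, 2378 and 2220.2 at 1, 2, 4 and 6 h, a mean of 2539 ± 389.8 (SD, n = 4). The 1 h sample stood above the other 3, which lay close together.

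The shared beta-globin probe set, the brightest of the haemoglobin probe sets, had 5026, 3762, 3440.5 and 4509.9 at 1, 2, 4 and 6 h, a mean of 4184 ± 718 (SD, n = 4). It also was highest at 1 h, but its lowest sample was that of 4 h and its 6 h sample came second. The shared probe set of Hba-a1 and Hba-a2 had 1579, 1426, 1057 and 860.2. Hbb-b2, a beta-globin gene by its platform symbol but not one of the 9 genes, had 514.5, 415, 422.5 and 319. Hba-a1, the shared alpha-globin probe set and Hbb-b2 were lowest at 6 h, while 20.9% of all tested probe sets were. Near-identical globin transcripts can bind each other's probes, so these 4 probe sets are not 4 independent readings of blood. The second shared beta-globin probe set was under the floor on all 4 arrays, with signals of 4.1 to 6.3.

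**Figure D1:**
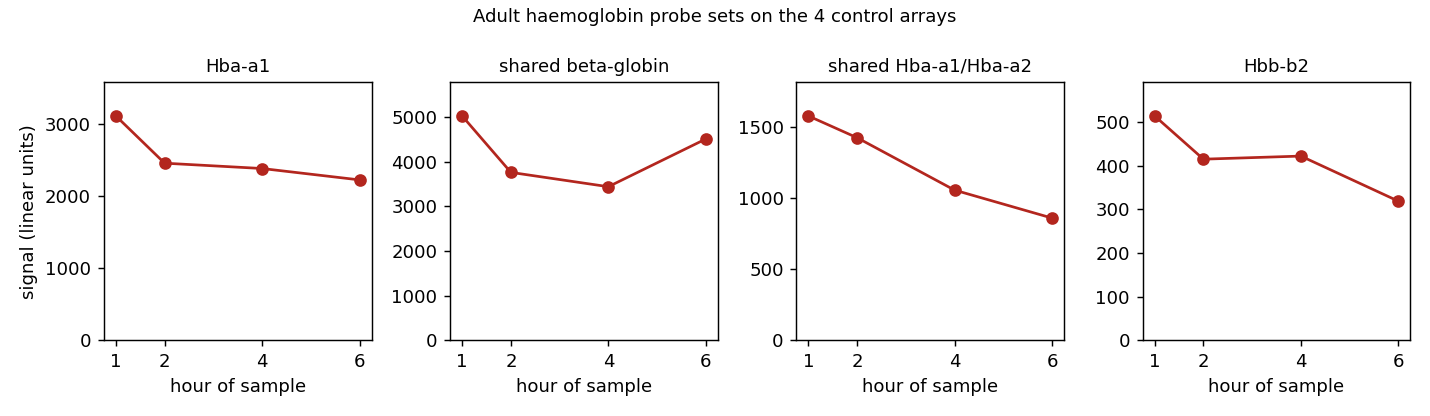
Signal in linear units (vertical axes, each starting at 0) against the hour of the sample (horizontal axes) for the 4 adult haemoglobin probe sets above the floor, 1 point per array. Each panel has its highest point at 1 h; the shared beta-globin panel alone turns upward at 6 h, to 4509.9.

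None of the haemoglobin slopes over the hours passed limma's test. The slope of Hba-a1 was -0.08 ± 0.05 log2 per hour (SE, 4 arrays; limma adjusted p = 0.9996), and that of Hbb-b2 was -0.12 ± 0.07. The shared alpha-globin probe set was steepest, at -0.18 ± 0.05 with an unadjusted limma p of 0.0119 and an adjusted p of 0.9996, and the shared beta-globin probe set had -0.02 ± 0.06. All 4 slopes were below 0, as were 46.8% of all slopes. Across 7237 tested probe sets limma called 0 (0%), and 196 (2.71%) had an unadjusted p under 0.05. No haemoglobin probe set was 2-fold from 1 h at any hour, while 10.2%, 6.2% and 6.54% of tested probe sets were, in either direction, at 2, 4 and 6 h.

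Among junction genes, Cldn5 had the brightest vessel probe set and did not follow haemoglobin. It had signals of 419, 324, 620.3 and 457 at 1, 2, 4 and 6 h, a mean of 455 ± 123 (SD, n = 4). Its highest sample was that of 4 h, where Hba-a1 was at its second lowest and the shared beta-globin probe set at its lowest. Its lowest sample was that of 2 h. The range of 1.91-fold was wider than that of 81.3% of the 2412 tested probe sets of the same brightness class, the tested probe sets being split into 3 equal classes.

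Pecam1 had signals of 199, 112, 185.5 and 100.1, a mean of 149 ± 50.3 (SD, n = 4). The 1 and 4 h samples were high and the 2 and 6 h samples low, so Pecam1 shared a high 1 h sample with haemoglobin and a high 4 h sample with Cldn5. Its 1.99-fold range is ordinary for a dim probe set: the median range in its brightness class was 1.90-fold. Cdh5 had 26.5, 51.5, 126 and 160.5, the lowest under the floor. It was the sole member with a higher signal at each later hour, and its floored range was 4.36-fold. It did not pass the filter on dim probe sets, which asks for a geometric mean of at least 116.4 over the 4 arrays, so limma did not test it.

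Among the growth factor receptors, the 2 probe sets of Flt1 differed in how much they varied. The brighter one had 356.5, 299, 299 and 294, a mean of 312 ± 29.5 (SD, n = 4), with the 1 h sample above 3 nearly equal ones. Its range of 1.21-fold was wider than that of only 9.20% of its brightness class. The dimmer Flt1 probe set, below the filter, disagreed, with 43.7, 59.4, 126 and 56.1, so that its 1 h sample was the lowest and not the highest, and it ranged over 2.89-fold. Kdr, below the filter too, had 110.3, 77.2, 55.5 and 150.4, a 2.71-fold range, and was lowest at 4 h where Cldn5 was highest. Tek, also below it, had 76.6, 70.6, 143 and 73.3, a 2.03-fold range, with the 4 h sample alone standing high.

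Slc2a1 was nearly flat. It had signals of 236, 288, 296 and 248, a mean of 267 ± 29.5 (SD, n = 4), with the 2 and 4 h samples slightly above the 1 and 6 h samples. The range of 1.25-fold was wider than that of only 5.30% of its brightness class. At 1 h, where haemoglobin was highest, Slc2a1 was lowest. Its slope of 0.005 log2 per hour turned to -0.0066 after quantile normalization and to -0.016 after median centring.

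**Figure D2:**
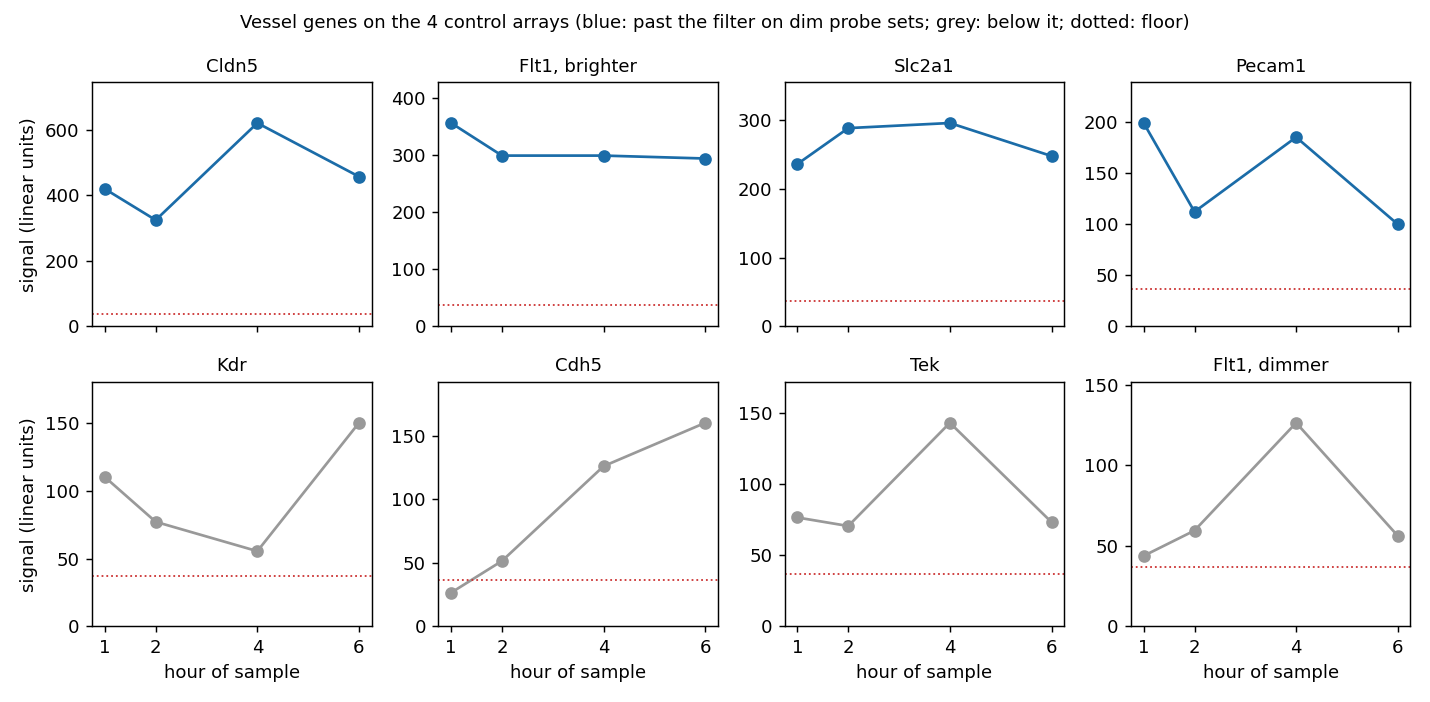
Signal in linear units (vertical axes, each starting at 0) against the hour of the sample (horizontal axes) for the 8 vessel probe sets, 1 point per array; blue ones passed the filter on dim probe sets, grey ones did not, and the dotted line is the floor of 36.8. Cldn5 peaks at 4 h (620.3), Flt1 on its brighter probe set and Slc2a1 are nearly flat, and the grey panels take 3 different shapes.

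Of the 7 vessel genes, 4 passed the filter (Cldn5, Flt1, Slc2a1 and Pecam1), and Tek, Kdr and Cdh5 did not. Kdr came nearest below it with a geometric mean of 91.8, and Pecam1 nearest above it with 142.8. The slopes of the 4 were 0.08 ± 0.09 log2 per hour for Cldn5, -0.12 ± 0.14 for Pecam1, -0.04 ± 0.08 for Flt1 and 0.005 ± 0.086 for Slc2a1 (SE, 4 arrays), each with a limma adjusted p of 0.9996. Their median range of 0.63 on the log2 scale was close to the 0.62 of all tested probe sets, and 0 of the 4 ranged over 2-fold or more, against 22.6% of all. Below the filter all 4 vessel probe sets did so, as did 49.8% of the 5185 probe sets there. With no filter, 0, 2 and 1 of the 9 member probe sets of 1 symbol were at least 2-fold from 1 h at 2, 4 and 6 h, against 14%, 12.7% and 13% of all.

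**Figure D3:**
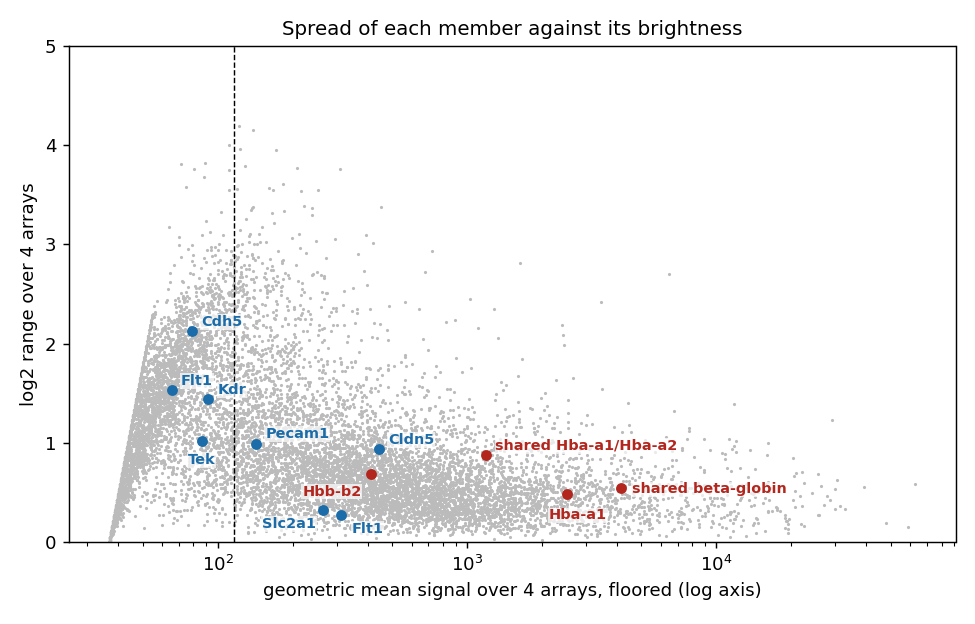
Log2 range over the 4 arrays (vertical axis) against the geometric mean signal after the floor (horizontal axis, log scale) for every probe set (grey), the vessel probe sets (blue) and the adult haemoglobin probe sets (red); the dashed line is the filter at a signal of 116.4. The 4 vessel probe sets left of the line range over at least 2-fold, while Slc2a1 and the brighter Flt1 probe set lie low in the cloud at 1.25-fold and 1.21-fold.

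Set side by side, the vessel median and the haemoglobin mean had their high and low points on different arrays. Each gene was expressed as the log2 difference from its own mean over the 4 arrays, with a gene's brightest probe set. The median of the 7 vessel genes was -0.08 at 1 h, -0.30 at 2 h, 0.38 at 4 h and -0.08 at 6 h. The mean of Hba-a1 and the shared beta-globin probe set was 0.29, -0.09, -0.17 and -0.03. Haemoglobin was thus highest at 1 h and lowest at 4 h, where the vessel median was highest. The low point rests on the shared beta-globin probe set: with Hba-a1 alone, and with all 4 adult haemoglobin probe sets, haemoglobin was lowest at 6 h. Single vessel genes past the filter were divided. Pecam1 and Flt1 were highest at 1 h and lowest at 6 h, as Hba-a1 was, while Cldn5 and Slc2a1 were highest at 4 h.

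The difference of vessel median minus haemoglobin was -0.37 at 1 h, -0.21 at 2 h, 0.55 at 4 h and -0.05 at 6 h. The median of all tested probe sets stayed between -0.01 and 0.02. With the 4 vessel genes past the filter, an alternative added after the data were seen, the vessel medians were 0.06, -0.20, 0.27 and -0.09. The vessel median ranged over 1.60-fold and haemoglobin over 1.38-fold, and neither reached 2-fold. Without the 1 h array, haemoglobin ranged over 0.15 on the log2 scale, against 0.47 with it. Without the 4 h array, the vessel median ranged over 0.28, against 0.68 with it. With 4 arrays, fewer than the 6 a correlation across samples needs, no correlation was computed. In whole-tissue RNA, fewer cells of a type and less RNA per cell cannot be told apart.

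The vessel genes did not move as a unit either. At 4 h 5 of 7 were above their own mean, against 52.5% of all tested probe sets, with Tek highest at 0.72 and Kdr lowest at -0.73. At 2 h 1 of 7 was above it, against 48.8%, namely Slc2a1 at 0.12, and Cdh5 was lowest at -0.61. At 1 and at 6 h 3 of 7 were above it, against 49.9% and 54.2%, with Cdh5 the lowest at 1 h (-1.10) and the highest at 6 h (1.03). Tek, Kdr and Cdh5 were below the filter, while the shares are of probe sets past it, and Cdh5 was under the floor at 1 h. Of the 4 vessel genes past the filter, 2, 1, 3 and 1 were above their own mean at 1, 2, 4 and 6 h. Their 4 h values ran from -0.06 for Flt1 to 0.49 for Cldn5. Without the 4 h array, the vessel median was highest at 1 h, the same array as haemoglobin. Among all 16 alternatives, that is the 1 in which both had their highest value on the same array. The alternatives reuse the same 4 arrays, and several leave the vessel or the haemoglobin value unchanged, so they are not independent checks.

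**Figure D4:**
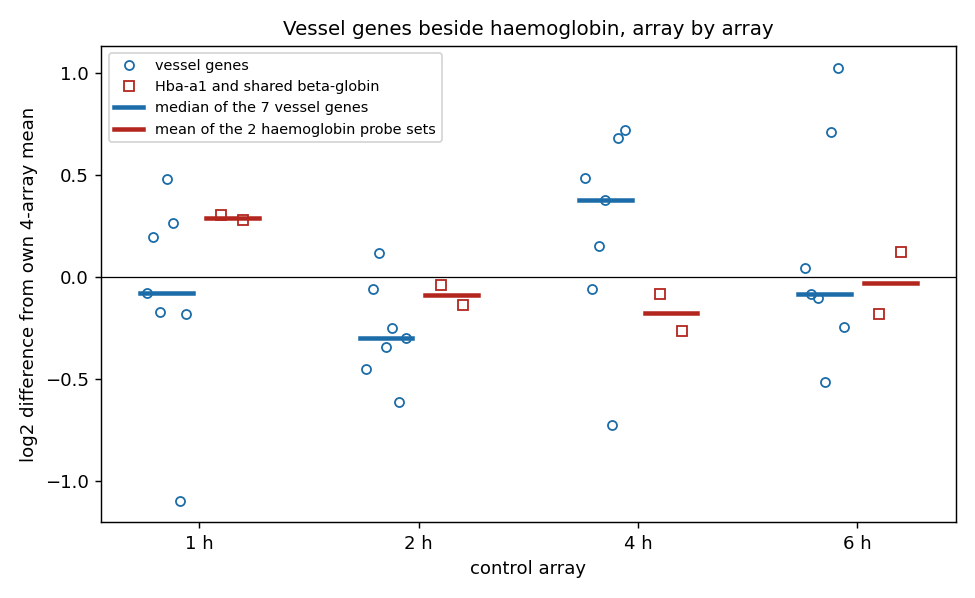
Log2 difference from the own 4-array mean (vertical axis) on each control array (horizontal axis) for the 7 vessel genes (blue circles) and for Hba-a1 and the shared beta-globin probe set (red squares); bars give the vessel median and the haemoglobin mean. The red bar is highest at 1 h (0.29) and the blue bar at 4 h (0.38), and the blue circles spread widely on each array.

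The 2 h array stood apart from the other 3 in the series as a whole. The 3′ over 5′ signal ratio of the control transcript Gapdh was 1.08 on it, against 4.10, 3.62 and 3.95 on the 1, 4 and 6 h arrays. For beta-actin the ratio was 1.72 on the 2 h array, against 2.27, 2.59 and 2.93, a smaller contrast. Of all tested probe sets, 32% had their lowest signal at 2 h. Of the 4 vessel genes past the filter, 1 (Cldn5) was lowest at 2 h. The part of the lower 3′ over 5′ ratios at 2 h in the vessel values was not tested. Without the 2 h array, the vessel median was still highest at 4 h and haemoglobin at 1 h. Of markers of the other cells of CA1, neuronal Snap25, a protein of synaptic vesicle release, had signals between 17938 and 19821 on the 4 arrays. Other neuron markers were less steady, such as Syt1 with 722, 3671, 1024 and 1016. At 2 h 5 of 7 neuron markers past the filter were above their own mean, against 48.8% of all tested probe sets, with a median of 0.39. So were 5 of 6 oligodendrocyte markers and 3 of 6 astrocyte markers. Markers of astrocytes and oligodendrocytes were bright as well, and the share of each cell type was not measured.

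Other endothelial genes varied over the 4 arrays with no common direction. Of 43 such genes listed, 31 had a probe set and 20 passed the filter. limma called 0 of the 20 in either direction, and 0 had an unadjusted p under 0.05. Their median range was 1.03 on the log2 scale, against 0.63 for the 4 vessel members past the filter and 0.62 for all tested probe sets. Of the 20, 11 ranged over at least 2-fold, against 0 of the 4 members and 22.6% of all. The medians of their log2 differences were 0.16, -0.08, 0.07 and -0.07 at 1, 2, 4 and 6 h, so this list, unlike the members, was highest at 1 h.

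Several of them dipped at 2 h. Abcb1a, the P-glycoprotein that pumps drugs out of barrier endothelium, had 178, 46.3, 128 and 187. Eng, a co-receptor of transforming growth factor beta on endothelium, had 969, 483, 948 and 1220.1, and the endothelial transcription factor Sox17 had 348, 153, 303 and 416. Both were chosen after their values were seen, as were Pglyrp1 with 290.1, 115, 292 and 213 and Itm2a with 335, 181, 307 and 416. At 2 h 7 of the 20 had their lowest signal, close to the 32% of all tested probe sets.

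Others went the opposite way at 2 h. Bsg, a partner of lactate transporters that neurons and glia also express, had 1780, 3630, 1962 and 1826. Tfrc, the transferrin receptor that carries iron across the barrier, had 1483, 2527, 1228 and 1180.1, and the Wnt-pathway transcription factor Lef1 had 446, 725, 753.5 and 224. Tie1, the partner of Tek, and von Willebrand factor, Vwf, were below the filter. Vwf had 116, 52.2, 96.1 and 45.0 on its brighter probe set, high and low on the same arrays as Pecam1. Tie1 had 111, 54.4, 88.6 and 142 on its brighter probe set, lowest at 2 h. The dimmer Tie1 probe set was highest at 2 h, with 16.4, 91.1, 24 and 42.1. At 2 h against 1 h, 4 of the 20 were at least 2-fold lower and 3 at least 2-fold higher, against 3.29% and 6.92% of all tested probe sets.

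**Figure D5:**
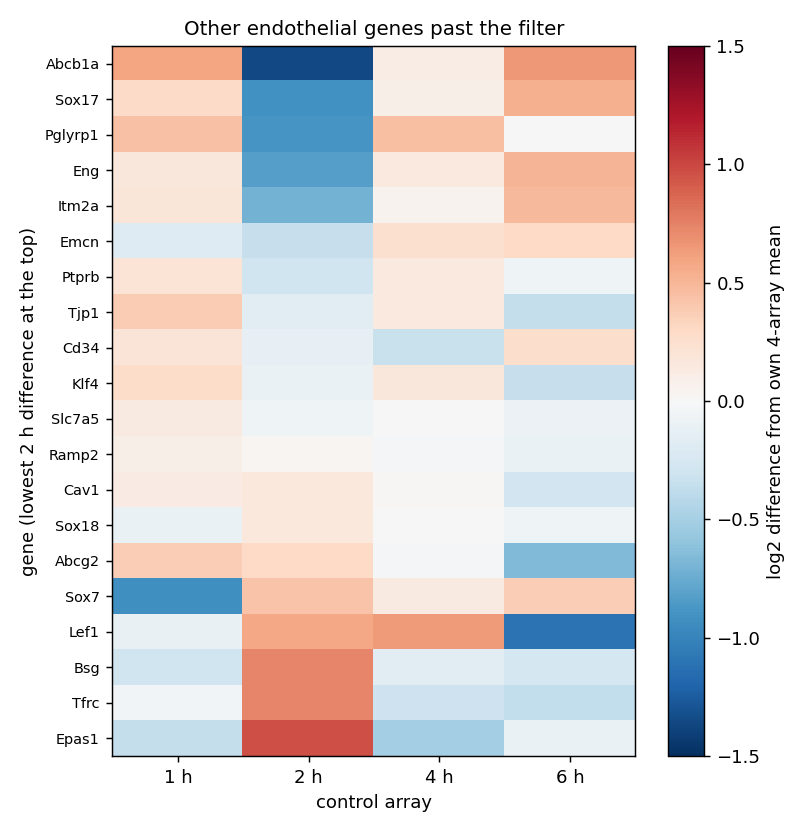
Log2 difference from the own 4-array mean (colour) for the 20 other endothelial genes past the filter (rows, ordered by their 2 h value) on the 4 control arrays (columns). The 2 h column runs from blue for Abcb1a (-1.36) to red for Epas1 (0.96), so the list does not move in one direction there.

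Markers of the cells that wrap vessels had no common direction at 4 h, the array on which the vessel median was highest. Of 14 markers of pericytes and smooth muscle, 13 had a probe set and 6 passed the filter, of which limma called 0. At 4 h 3 of the 6 were above their own mean, close to the 52.5% of all tested probe sets, with Vtn above it by only 0.003. Rgs5, a pericyte marker, had 172, 316, 322 and 297 on its brighter probe set, with the 2 h sample nearly as high as that of 4 h. Its dimmer probe set, below the filter, was above the floor at 2 h alone (142). Notch3, a receptor of vascular smooth muscle, had 279, 175.5, 317 and 244, so Notch3 and the brighter Rgs5 probe set were highest at 4 h. By contrast, smooth muscle actin, Acta2, had 182, 191, 40.1 and 267, and the adhesion molecule Mcam had 177, 285, 39.6 and 199. Acta2 and Mcam were thus lowest at 4 h, and so was Pdgfrb, the growth factor receptor of pericytes, which was below the filter (119, 101, 39.6 and 136). Also below the filter, and named after their values were seen, Anpep (235.6 at 4 h), the muscle filament protein Des (172 at 4 h) and smooth muscle myosin, Myh11 (97.6 at 4 h), had their highest signal on that array.

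Of the 12 basement membrane genes, 7 passed and 0 were called by limma. The medians of their log2 differences were 0.03, -0.12, 0.11 and 0.02 at 1, 2, 4 and 6 h, lowest at 2 h and highest at 4 h like the vessel members. Of the 7, 4 had their lowest signal at 2 h, against 32% of all tested probe sets, and 5 were above their own mean at 4 h, against 52.5%. Sparc, a matrix glycoprotein, was steady, with 1009, 1008.5, 1095 and 1056. Lama5, a laminin chain, had 182, 69.4, 189.5 and 108, and Lamb1 had 539, 337, 471 and 602, each on its brighter probe set. The dimmer Lama5 probe set, below the filter, was lowest at 4 h, with 108.6, 81.6, 46.4 and 118.5. The dimmer Lamb1 probe set was lowest at 2 h and highest at 4 h, with 152, 109, 281 and 197. Of 14 vascular ligand and receptor genes listed, 11 had a probe set, 3 passed and 0 were called. Vegfb, a ligand of Flt1, had 1635, 1498, 1366 and 1183, and Pgf, another ligand of Flt1, had 205, 250.5, 328 and 292.5. Nrp1, a co-receptor of vascular endothelial growth factor, had 1859, 1629, 1691 and 1543. Vegfa, the main ligand of Kdr, was above the floor on the 2 h array alone (141), and Angpt1, the ligand of Tek, had signals of 12.6 to 62.0.

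Red cell genes other than haemoglobin did not share its high point. Of 20 listed, 14 had a probe set and 8 passed the filter. The medians of their log2 differences were -0.06, -0.01, -0.19 and 0.32, highest at 6 h. There Hba-a1 was at -0.18, the shared alpha-globin probe set at -0.48 and Hbb-b2 at -0.37, each at its lowest, and the shared beta-globin probe set was at 0.12. 1 of the 8 was highest at 1 h, against 23.1% of all tested probe sets. Slc4a1, the anion exchanger of the red cell membrane, had 91.7, 179, 123 and 255, and Alas2, which makes haem in red cell precursors, was below the filter with 61.1, 169, 102.5 and 93.2. Both were lowest at 1 h. Ank1, an ankyrin that neurons also make, had 2108, 1945, 1840.0 and 2225 on its brightest probe set, highest at 6 h. Another Ank1 probe set past the filter was lowest at 6 h, with 1006, 1019, 866 and 832. Bpgm, which makes the bisphosphoglycerate that tunes oxygen binding, had 750.1, 1053, 674 and 854. Epor, the erythropoietin receptor, had 62.4, 91.9, 111 and 335, and its slope of 0.45 ± 0.14 log2 per hour had an unadjusted limma p of 0.0152 and an adjusted p of 0.9996.

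Embryonic globin chains, which adult red cells lack, were dim. Hba-x had 131, 126, 111 and 177, Hbb-bh1 had 66.5, 74.2, 63.4 and 70.6, and Hbb-y had 85.6, 124, 85.9 and 16 on its brighter probe set. None of them was highest at 1 h. White cell and platelet markers were mostly dim: 15 of 18 had a probe set and 3 passed the filter. Their summed signal over the 15 lay between 1213 at 2 h and 1704 at 6 h, with 1377 at 1 h. Of the 3 past the filter, the platelet marker Gp1bb had 353, 119, 196 and 157, highest at 1 h as haemoglobin was. Camp had 199, 178, 356 and 430, and Ms4a1 had 271, 272, 419 and 393 on its brighter probe set, both lower at 1 h than at 4 h. Ptprc, the common antigen of white cells, was dim, with 33.4, 54.7, 5.6 and 51.7 on its brightest probe set by mean signal. Another Ptprc probe set had 74.7 at 4 h and was under the floor on the other arrays, and the third was under it on all 4.

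The tested genes with profiles most like the haemoglobin mean were Pfdn6, Vps35, Fem1a, Cry1 and Rbmx, each within a root mean square difference of 0.03 log2 over the 4 arrays. Nearest the mean profile of the vessel genes were Dda1, Gpr182, Fbxw4, Gnao1 and Trim28, within 0.03 as well. Over 4 arrays such likeness is common: 204 probe sets (3.12% of 6531) lay within 0.1 of the haemoglobin profile, and 253 (3.88% of 6528) within 0.1 of the vessel profile. The other adult haemoglobin probe sets lay farther off than that, at 0.29 for the shared alpha-globin probe set and 0.21 for Hbb-b2.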

How the data were processed

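Total RNA of 4 CA1 samples was measured on 1 array each. Each deposited value is a linear intensity of 1 probe set. The program that made them is not named in the sources used here. After trimming 2% of values at each end, every array had a mean of 500.3, as if the authors had scaled to a common mean. No 2 arrays were identical. Signals under the pooled 20th percentile (36.8) were raised to it before the log2 step. From the 12488 probe sets 66 controls were dropped, and the 7237 with a geometric mean of at least 116.4 (the pooled 40th percentile) entered the test. Symbols are those of the platform annotation, updated through gene identifiers. The symbol was unique for 10833 probe sets, and 396 had several.

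The slope of log2 signal per hour was tested with limma over all 4 arrays (2 residual degrees of freedom, mean-dependent variance prior, two-sided, Benjamini-Hochberg over all tested probe sets at 0.05). The procedure was tested on simulated data. Single arrays were compared by 2-fold counts with no test. Labels do not say whether samples came from separate animals. The number of arrays limits the precision.

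Named were all member probe sets, in each list the 2 brightest and the 2 widest-ranging genes past the filter, a fixed set of markers, and the 5 nearest profiles to each member group; in the text some of these are left out. Members, lists and tests were chosen with earlier results of these data known. Alternatives covered normalization, floor, filter, time scale, variance prior, probe sets, member sets and leaving out each array. R 4.3.3, limma 3.58.1, Python 3.11.15 and pandas 2.3.3 were used.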

Additional observations from a re-analysis of the deposited data

Results flagged for a closer look

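Among the 4 control arrays, 2 of the 9 member probe sets of 1 symbol had 1 sample far from the other 3. The criterion was Dixon's at 95%, for the gap to the nearest sample over the range, both on the log2 scale. Chance passes it in about 1 of 20 sets, and the share of all probe sets that pass it was not counted. Tek had 143.3 at 4 h against 70.6 to 76.6 on the other arrays, a gap of 0.885 of its log2 range, on a probe set below the filter on dim signals. Flt1, on its brighter probe set, had 356.5 at 1 h against 294 to 299 on the others, a gap of 0.910 of its log2 range, although that range is only 1.21-fold.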

How the results depend on the processing

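The limma count of 0 slopes stayed 0 under every alternative except leaving out the 2 h array (range 0 to 30 over the arrays left out; 30 without the 2 h array, from 1 residual degree of freedom, none of them a member probe set). The 2-fold counts against 1 h (739, 449 and 473 at 2, 4 and 6 h) became 1735, 1574 and 1611 with no filter and 304, 76 and 74 with the filter at the 60th percentile, since the filter sets how many dim probe sets are counted. The 4 h count was 268 against the mean of the other 3 arrays. The share of higher among these was 67.8%, 59.5% and 57.3%, and 54.5%, 47.0% and 43.2% after median centring, which lowers the median log2 difference from 1 h to -0.13 at 2 h and -0.12 at 6 h. Of 16 alternatives, the vessel median was highest at 4 h in 14 and lowest at 2 h in 15, and haemoglobin was highest at 1 h in 14. Several of these alternatives leave the vessel or the haemoglobin value unchanged. With the wider endothelial and red cell lists in place of the members, the vessel value at 4 h was 0.066, and the blood value was -0.056 at 1 h and 0.32 at 6 h; the cause was not tested. Slopes that changed sign were those of Pecam1 (-0.19 to 0.022 with 1 array left out, above 0 without the 6 h array), Slc2a1 (-0.055 to 0.095 with 1 array left out, below 0 without the 1 h or the 4 h array, and -0.0066 with quantile normalization and -0.016 with median centring) and the shared beta-globin probe set (-0.17 to 0.065, above 0 without the 1 h array), none of them called. No paired analysis was possible because each hour had 1 sample.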

Other observations

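Other glucose transporters included 1 as flat as Slc2a1 and others that ranged more widely. Slc2a8 had 565, 539, 469 and 463 at 1, 2, 4 and 6 h on its brighter probe set, a range of 1.22-fold against 1.25-fold for Slc2a1. The neuronal transporter Slc2a3 had 562.5, 710, 548 and 525 on its brighter probe set and 84.2, 379, 99.4 and 125 on the dimmer one. Slc2a5, a fructose transporter found in microglia, had 101, 240, 260.2 and 326, a slope of 0.28 ± 0.12 log2 per hour with an unadjusted limma p of 0.0439 and an adjusted p of 0.9996. Of the choroid plexus markers, Ttr, its main secreted protein, had 222, 892, 107.5 and 356, highest on an array where neither haemoglobin nor the vessel median was high.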
